A study of Mus musculus with 7 samples.

Results

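The 10 genes described here mark Bergmann glia and astrocytes, the astroglial cells of the cerebellum: Gdf10, Hopx, Fabp7, Slc1a3, Slc1a2, Aqp4, Gfap, Aldoc, Aldh1l1 and Ptprz1. They were chosen by symbol as known astroglial markers, with earlier results of these data known. Each symbol matched 1 gene ID, giving 10 of the 55450 genes in the files. All 10 passed the filter on low counts. Polyadenylated RNA was sequenced from cerebella of C57BL/6 mouse pups at postnatal day 15. Of the 7 libraries, 4 came from cerebella of genotype L3mbtl3 KO/+, with 1 knockout allele of the gene for the chromatin reader L3MBTL3, and 3 came from WT cerebella. The labels name no further allele, no treatment and no litter, do not say whether each library is 1 pup, and do not give the deleted part of L3mbtl3, so p-values measure the spread between these 7 samples. The comparison asks which transcripts differ when L3mbtl3 has a single intact allele, and here it is read for astroglial genes.

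Bergmann glia are the radial astrocytes whose cell bodies lie among the Purkinje cells and whose fibres cross the molecular layer, guiding granule neurons as they migrate inward and later wrapping Purkinje cell synapses. They take up synaptic glutamate, while astrocytes of the granular layer and white matter carry much of the filament and water channel of the tissue. Notch signalling through the transcription factor RBPJ is known to maintain radial glia, and L3MBTL3 is known to bind RBPJ at Notch target genes, with Fabp7 a known Notch-responsive gene of radial glia in mouse. In whole tissue, fewer astroglial cells and less RNA per cell cannot be told apart.

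The promoter windows of Fabp7, Gfap and Aldoc are shown because Fabp7 varied most between libraries, Gfap is the filament gene by which astrocytes are best known, and Aldoc has 2 start sites used by different transcripts. Each window is RefSeq's, runs from 250 bases before to 50 bases after a gene start on the strand of the gene (GRCm38.p6), and has in capitals each match to the RBPJ core TGGGAA, read on both strands so that TTCCCA is the same motif.
Fabp7, chromosome 10, chr10:57784673-57784972, plus strand: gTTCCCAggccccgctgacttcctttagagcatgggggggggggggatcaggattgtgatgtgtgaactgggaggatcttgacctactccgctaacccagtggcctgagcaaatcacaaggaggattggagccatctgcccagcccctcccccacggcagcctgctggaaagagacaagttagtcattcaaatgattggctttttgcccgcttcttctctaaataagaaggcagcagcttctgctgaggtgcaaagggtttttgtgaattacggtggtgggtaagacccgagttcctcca
Gfap, chromosome 11, chr11:102897151-102897450, minus strand: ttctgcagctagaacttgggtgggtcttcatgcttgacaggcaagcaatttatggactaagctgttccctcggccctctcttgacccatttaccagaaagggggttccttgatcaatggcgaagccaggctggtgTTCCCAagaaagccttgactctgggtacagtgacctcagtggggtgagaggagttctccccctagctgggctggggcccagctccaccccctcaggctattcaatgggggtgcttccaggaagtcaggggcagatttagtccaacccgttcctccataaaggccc
Aldoc, upstream start, chr11:78322823-78323122, plus strand: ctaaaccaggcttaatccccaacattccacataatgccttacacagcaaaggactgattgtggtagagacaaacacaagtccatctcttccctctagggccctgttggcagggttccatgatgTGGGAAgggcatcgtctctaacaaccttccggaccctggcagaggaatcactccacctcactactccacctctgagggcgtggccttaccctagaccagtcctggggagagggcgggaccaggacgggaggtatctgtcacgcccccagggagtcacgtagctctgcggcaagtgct
Aldoc, downstream start, chr11:78323948-78324247, plus strand: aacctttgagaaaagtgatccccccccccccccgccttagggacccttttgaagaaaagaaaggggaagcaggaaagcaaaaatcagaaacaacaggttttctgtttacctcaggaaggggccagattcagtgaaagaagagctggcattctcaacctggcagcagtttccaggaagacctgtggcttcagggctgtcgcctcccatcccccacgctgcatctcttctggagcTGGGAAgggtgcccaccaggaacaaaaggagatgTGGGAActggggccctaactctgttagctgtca
Counted from the RefSeq start, the match lay 249 bases before it in Fabp7 and 115 bases before it in Gfap. Those RefSeq starts coincide with the minor forms Fabp7-202 and Gfap-202. The main form Fabp7-201 begins upstream of the RefSeq start, at position 57784881, and the main form Gfap-201 begins downstream of the window, at position 102897131. The upstream Aldoc window held 1 match and the downstream window held 2. Aldh1l1 had 1 match as well, and the windows of Gdf10, Slc1a3, Slc1a2, Hopx and Ptprz1 had 0. The Slc1a2 window lies at the start of its minor forms and not of its main transcript. Hopx, like Aldoc, had 2 windows at different starts, which are not printed, while every window printed above held a match. Of 32851 RefSeq promoter windows of the same length, 25.56% held the motif, and a match is a description of the letters only.

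Libraries held between 29248360 and 43761792 expected counts, which is the number of reads the authors' software assigned to genes. Levels below are CPM, which are counts scaled to the size of each library, and TPM, which is also divided by transcript length, where genes are compared with each other. Markers of the labelled tissue were present throughout: all 11 Purkinje cell genes and all 10 mature granule neuron genes of the lists used here stood at 1 CPM or more in every library. L3mbtl3 itself stood at 19.7, 17.4, 22.3 and 23.0 CPM in KO/+ cerebella and at 22.6, 26.8 and 23.2 CPM in WT cerebella. These values overlapped (log2 fold change -0.23, SE 0.12, edgeR adjusted p = 0.957), so they do not check the genotype labels. WT replicate 3, KO/+ replicate 1 and KO/+ replicate 2 had much lower levels of dividing-cell genes than the others, and the choroid plexus gene Ttr ranged between 1.52 CPM in WT replicate 1 and 1350 CPM in KO/+ replicate 1. Of the 16813 genes tested with edgeR's quasi-likelihood test, 0 passed a Benjamini-Hochberg adjusted p of 0.05 (0%), and 530 (3.15%) had an unadjusted p under 0.05.

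None of the astroglial genes passed the test, and 1 of them, Hopx, separated the genotypes without overlap. Of the 10 genes, 0 passed the test in either direction (background 0%), 6 had positive and 4 negative log2 fold changes in KO/+ cerebella, and the median was 0.05, against -0.005 over all genes tested. DESeq2, limma-voom and limma-trend on log2(TPM + 1) also called 0 of the 10. With edgeR 1 of the 10, Ptprz1, had an unadjusted p under 0.05 and was lower, where 1.9% of all genes were lower and 1.25% higher at that level. Summed over the 10 genes, the TPM made up 0.361%, 0.404%, 0.384% and 0.408% of all transcripts in the KO/+ libraries and 0.381%, 0.402% and 0.413% in the WT libraries. KO/+ replicate 1 had the lowest share and WT replicate 3 the highest, and the other libraries lay between them with the genotypes mixed.

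**Figure D1:**
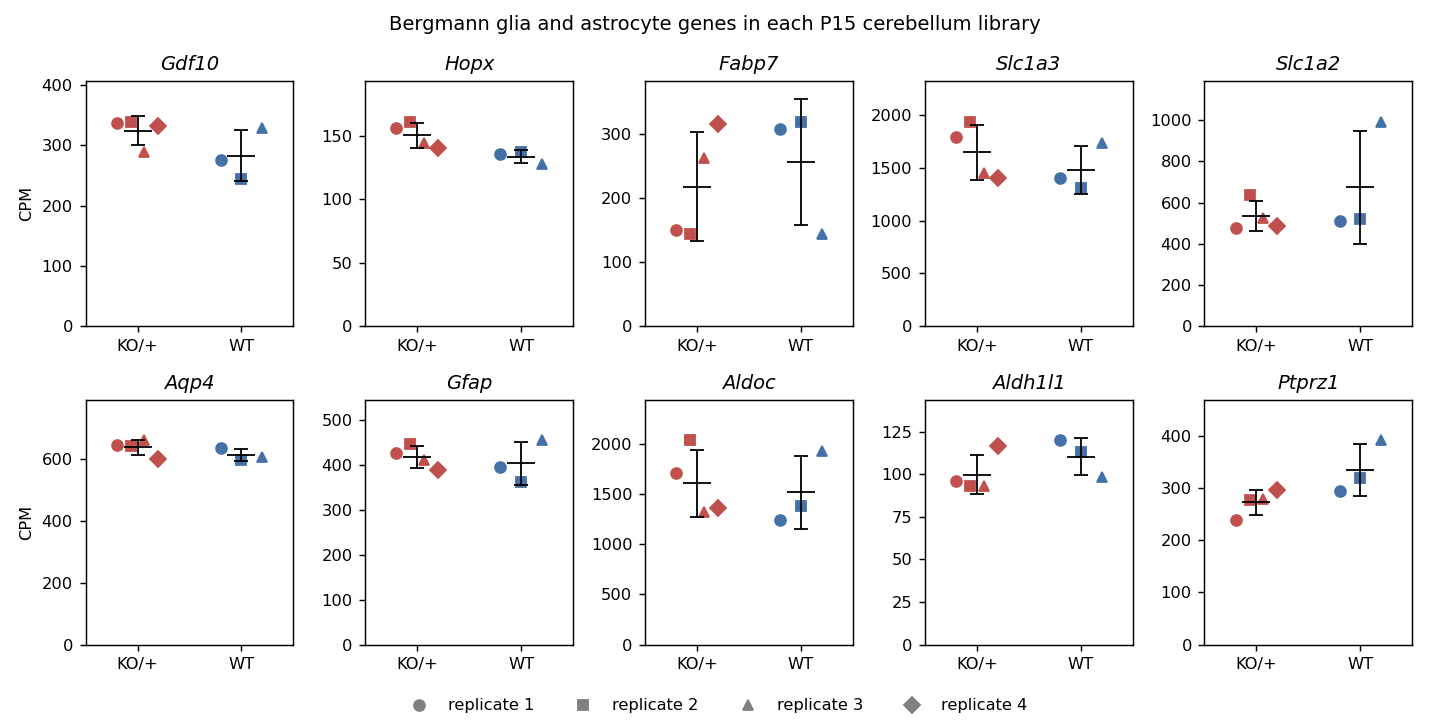
CPM of each gene (vertical axes, each from 0) in the 4 KO/+ and 3 WT libraries, with the replicate number as the marker shape and black bars for the mean and SD. Only Hopx has all KO/+ points above all WT points, at 140 to 161 CPM against 128 to 137 CPM; Fabp7 splits within each genotype.

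**Figure D2:**
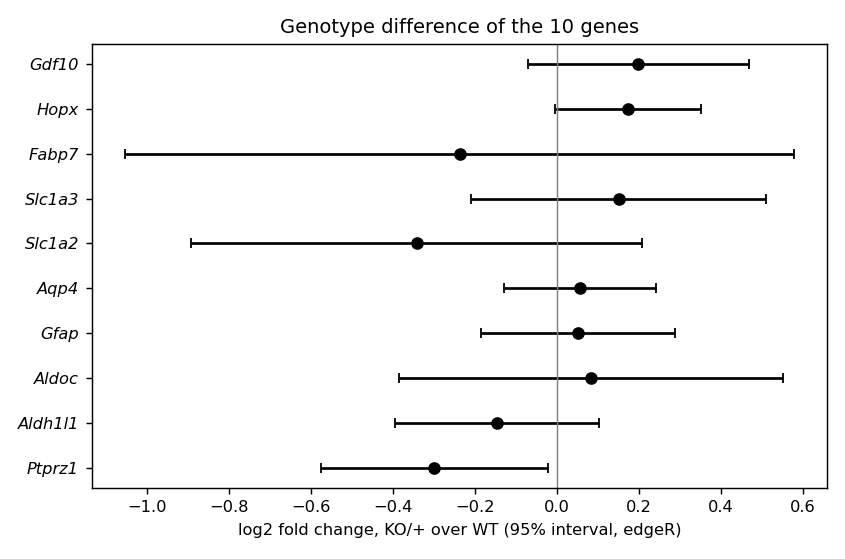
Log2 fold change of KO/+ over WT for each gene (horizontal axis) with its 95% interval from the edgeR fit. The intervals of 9 genes include 0, that of Ptprz1 runs from -0.58 to -0.02 before adjustment, and those of Fabp7 and Slc1a2 are the widest.

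Ordered by TPM, which allows genes of different length to be compared, Aldoc was the most abundant of the 10 in every library, at a mean of 1473 TPM over the 7 libraries, above 99.6% of genes tested. Fabp7 (mean 790 TPM) and Slc1a3 (618 TPM) came next, but their ranges overlapped and Fabp7 exceeded Slc1a3 in 4 of 7 libraries. Hopx (272 TPM) and Gfap (268 TPM) did not differ beyond their spread, and both were above Aqp4 (212 TPM) in every library. Gdf10 (94.0 TPM), Slc1a2 (81.2 TPM) and Ptprz1 (69.3 TPM) formed a lower tier with overlapping ranges. Aldh1l1 was lowest at 57.6 TPM, and lay below Ptprz1 in 7 of 7 libraries. Even so its level exceeded that of 82.5% of genes tested.

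Among genes that identify Bergmann glia, Gdf10 encodes a secreted ligand of the BMP family that in the cerebellum is restricted largely to Bergmann glia. It lies on chromosome 14 from 33923587 to 33937983 (GRCm38, ENSMUSG00000021943.7) and was measured as 1 transcript. It stood at 337, 339, 289 and 333 CPM in KO/+ cerebella and at 275, 244 and 328 CPM in WT cerebella. Most KO/+ libraries were high and WT replicate 3 reached their level, so the groups overlapped. KO/+ over WT gave a log2 fold change of 0.20 (SE 0.12; 95% interval -0.07 to 0.47; edgeR adjusted p = 0.957). Leaving out WT replicate 3 gave 0.32 and leaving out WT replicate 2 gave 0.10.

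Hopx encodes a small homeodomain protein that does not bind DNA and marks Bergmann glia and other radial glia-like cells. It lies on chromosome 5 from 77086988 to 77115121 (ENSMUSG00000059325.14). Its CPM were 156, 161, 145 and 140 in KO/+ cerebella, against 136, 137 and 128 in WT cerebella. Every KO/+ library was above every WT library, by a narrow margin between KO/+ replicate 4 and WT replicate 2. Genotypes did not overlap for 1 of the 10 genes, where 3.96% of all genes tested had no overlap, 2.16% being higher and 1.8% lower in KO/+. The mean was 112.7% of the WT level, at 150 ± 9.74 CPM in KO/+ (SD, n = 4) and 133 ± 5.02 CPM in WT (SD, n = 3), with a log2 fold change of 0.17 (SE 0.08; 95% interval -0.005 to 0.35). It did not pass (edgeR adjusted p = 0.957), and an exact two-sided permutation test gave p = 0.0571, where 0.0286 is the smallest value these libraries allow. Leaving out 1 library at a time gave 0.14 to 0.19. Hopxos, the antisense gene over Hopx, was at 0.33 to 0.67 CPM in all libraries, as the authors' software assigned the reads, and the part of antisense reads in the Hopx level was not tested.

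Fabp7 encodes brain lipid-binding protein, the fatty acid carrier of radial glia and young astroglia. It lies on chromosome 10 from 57784881 to 57788450 (ENSMUSG00000019874.11), 31.4 Mb from L3mbtl3 on the same chromosome. Its CPM were 151, 143, 262 and 315 in KO/+ cerebella and 307, 319 and 144 in WT cerebella. KO/+ replicates 1 and 2 and WT replicate 3 were low at nearly the same level, and the remaining libraries of both genotypes were high. The highest library held 2.23 times the lowest, and the SD within genotypes of 0.60 on the log2 scale exceeded that of 99.4% of the 1902 genes of like level. Its log2 fold change came to -0.24 (SE 0.36; 95% interval -1.05 to 0.58; edgeR adjusted p = 0.957), the widest interval of the 10 genes. Its value was -0.53 without WT replicate 3 and -0.06 without WT replicate 2.

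The libraries low in Fabp7 were the ones low in genes of dividing cells. Mki67, the proliferation marker of granule neuron progenitors at this age, stood at 63.5, 61.4, 152 and 180 CPM in KO/+ cerebella and at 194, 209 and 63.6 CPM in WT cerebella. The 20 cell cycle genes summed to 439 to 996 CPM in KO/+ libraries and to 423 to 1116 CPM in WT libraries, and 0 of the 20 were at 0 in any library. In a fit that also held the cell cycle score, Fabp7 had a log2 fold change of -0.02. In that fit Slc1a3 was at 0.07, against 0.15 without the score, and Slc1a2 at -0.38, against -0.34. The part of the cell cycle genes in the spread of Fabp7 was not tested. Among 10518 genes of at least 10 CPM, the pattern nearest to that of Fabp7 over the 7 libraries was that of Mycn, the proto-oncogene of proliferating granule neuron progenitors, with a root mean square difference of 0.07 on the log2 scale, where Fabp7 itself deviated from its mean by 0.52. Mycn was at 34.3, 32.5, 58.5 and 63.1 CPM in KO/+ and at 67.3, 66.0 and 29.5 CPM in WT cerebella. Mns1 came second at 0.08.

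**Figure D3:**
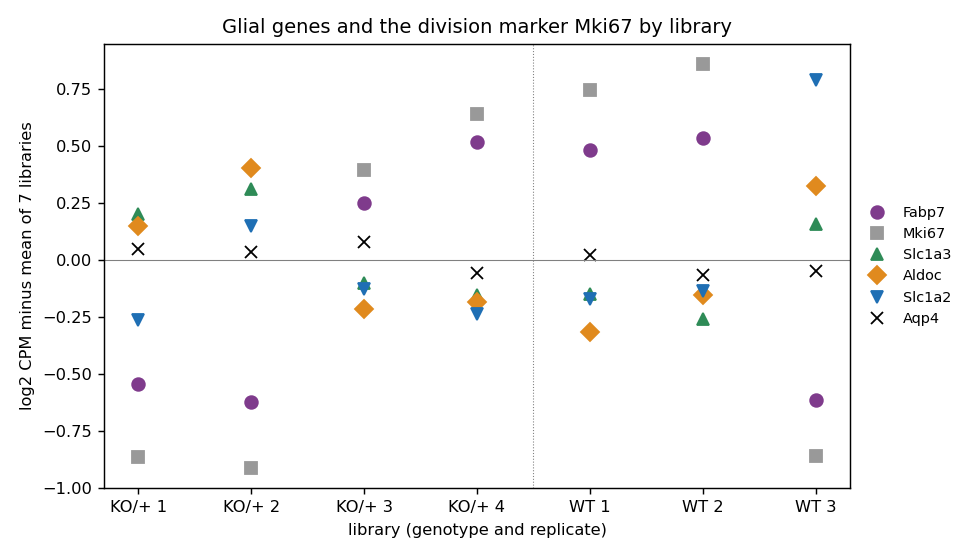
Log2 CPM of 5 astroglial genes and of Mki67, each minus its mean over the 7 libraries (vertical axis), by library with KO/+ on the left of the dotted line. Fabp7 lies with Mki67, below its mean in KO/+ replicates 1 and 2 and WT replicate 3, while Slc1a3 and Aldoc lie above their means in those libraries; Slc1a2 is high in WT replicate 3, and Aqp4 is flat.

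Glutamate uptake rests on a pair of transporters. Slc1a3, which encodes GLAST, the main glutamate transporter of Bergmann glia, lies on chromosome 15 from 8634124 to 8710764 (ENSMUSG00000005360.14). It stood at 1793, 1937, 1455 and 1402 CPM in KO/+ cerebella and at 1405, 1305 and 1741 CPM in WT cerebella. KO/+ replicates 1 and 2 and WT replicate 3 were high, the opposite of their order for Fabp7. For Slc1a3 the log2 fold change came to 0.15 (SE 0.16; 95% interval -0.21 to 0.51; edgeR adjusted p = 0.957), with 0.28 without WT replicate 3 and 0.06 without WT replicate 2. The gene with the nearest pattern was Mlc1, a membrane protein gene of astroglial endfeet. Mlc1 stood at 233, 260, 196 and 183 CPM in KO/+ and at 183, 171 and 239 CPM in WT cerebella. The root mean square difference was 0.028, where Slc1a3 deviated from its mean by 0.20, and C1qtnf4 came second at 0.032. For Hopx, Gfap and Aqp4 the nearest patterns were those of Cdkal1 (0.019), Smim19 (0.009) and Ndufab1 (0.015).

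Slc1a2, which encodes the astrocytic transporter GLT-1, lies on chromosome 2 from 102658659 to 102790784 (ENSMUSG00000005089.15). Its CPM were 479, 637, 527 and 488 in KO/+ cerebella and 510, 522 and 993 in WT cerebella. WT replicate 3 stood far above the other 6 libraries, and without it the groups lay over each other. For Slc1a2 the log2 fold change came to -0.34 (SE 0.24; 95% interval -0.89 to 0.21; edgeR adjusted p = 0.957), and it turned to 0.04 without WT replicate 3. Its SD within genotypes exceeded that of 95.8% of the 471 genes of like level. The nearest patterns were those of Nxph1 and Paqr7, with root mean square differences of 0.03 and 0.05. Slc6a11, the glial GABA transporter GAT-3, was likewise high in WT replicate 3, at 37.9, 69.3, 67.6 and 47.5 CPM in KO/+ and 60.4, 57.2 and 266 CPM in WT cerebella (log2 fold change -1.20, SE 0.53, edgeR adjusted p = 0.957; -0.08 without WT replicate 3).

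Aqp4 encodes the water channel of astrocyte endfeet (ENSMUSG00000024411.10) and was the steadiest of the 10 genes. It stood at 646, 641, 660 and 601 CPM in KO/+ cerebella and at 635, 597 and 605 CPM in WT cerebella. The highest library held 1.10 times the lowest, and the SD within genotypes exceeded that of 2.9% of the 409 genes of like level. KO/+ replicates 1, 2 and 3 lay above every WT library, and KO/+ replicate 4 lay between WT replicates 2 and 3. The log2 fold change of 0.06 had the narrow 95% interval of -0.13 to 0.24 (edgeR adjusted p = 0.957). Gfap, the intermediate filament of fibrous and reactive astrocytes, lies on chromosome 11 from 102887336 to 102900912 (ENSMUSG00000020932.14). It stood at 427, 446, 409 and 389 CPM in KO/+ cerebella and at 394, 360 and 454 CPM in WT cerebella. Its highest and lowest libraries were both WT (replicates 3 and 2), and its log2 fold change came to 0.05 (SE 0.10; 95% interval -0.18 to 0.29; edgeR adjusted p = 0.961). Without WT replicate 2 it was -0.03.

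Of the metabolic genes, Aldoc encodes the brain aldolase C of glycolysis, which astroglia share with the zebrin-positive Purkinje cells. It lies on chromosome 11 from 78322968 to 78327781 (ENSMUSG00000017390.15). It stood at 1705, 2033, 1324 and 1355 CPM in KO/+ cerebella and at 1237, 1381 and 1927 CPM in WT cerebella. KO/+ replicates 1 and 2 and WT replicate 3 were again the high libraries. Aldoc had a log2 fold change of 0.08 (SE 0.20; 95% interval -0.39 to 0.55; edgeR adjusted p = 0.968), and it changed sign without KO/+ replicate 2 (-0.05) or WT replicate 1 (-0.05). The 11 Purkinje cell genes summed to 5442 to 7828 CPM in KO/+ and to 5148 to 7566 CPM in WT libraries, highest in KO/+ replicate 2 and WT replicate 3, and their part in the Aldoc level was not tested.

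Aldh1l1 encodes the folate enzyme 10-formyltetrahydrofolate dehydrogenase, a general astrocyte marker, and lies on chromosome 6 from 90486427 to 90600203 (ENSMUSG00000030088.15). It stood at 95.8, 93.3, 93.0 and 117 CPM in KO/+ cerebella and at 120, 113 and 98.2 CPM in WT cerebella. KO/+ replicate 4 lay with WT replicates 1 and 2 at the high end, and the other KO/+ libraries lay just under WT replicate 3. Aldh1l1 had a log2 fold change of -0.15 (SE 0.11; 95% interval -0.40 to 0.10; edgeR adjusted p = 0.957), at -0.24 without KO/+ replicate 4 and -0.09 without WT replicate 1. The 3 libraries highest in Aldh1l1 were among the 4 lowest in Slc1a3, and KO/+ replicate 3 was low in both.

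Ptprz1 encodes a receptor tyrosine phosphatase that also occurs as the secreted proteoglycan phosphacan, and is expressed by radial glia, Bergmann glia and oligodendrocyte precursors. It lies on chromosome 6 from 22875502 to 23052916 (ENSMUSG00000068748.7). It stood at 238, 276, 279 and 295 CPM in KO/+ cerebella and at 295, 318 and 391 CPM in WT cerebella. All but KO/+ replicate 4 were under every WT library, and that library exceeded WT replicate 1 by less than 1 CPM. The mean was 81.3% of the WT level, at 272 ± 24.4 CPM in KO/+ (SD, n = 4) and 335 ± 50.1 CPM in WT (SD, n = 3). Ptprz1 had a log2 fold change of -0.30 (SE 0.12; 95% interval -0.58 to -0.02), and with an unadjusted p of 0.0378 it did not pass (edgeR adjusted p = 0.957; 3.15% of all genes had an unadjusted p under 0.05). The exact two-sided permutation test gave p = 0.0571, as for Hopx. These were the smallest values of that test over the 10 genes, with no adjustment, and the others ran from 0.171 to 0.743. Without WT replicate 3 the log2 fold change of Ptprz1 was -0.17 and without WT replicate 1 it was -0.39.

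Oligodendrocyte precursors also express Ptprz1. All 9 of their marker genes had negative log2 fold changes (median -0.29), where 8602 of all 16813 genes tested were negative. Of the 9, 0 passed, and Gpr17 was lower at an unadjusted p under 0.05, as were 1.9% of all genes. Without WT replicate 3, Olig1 was at 0.06, Lhfpl3 at 0.09, Olig2 at -0.02 and Sox10 at -0.03. Gpr17 was then at -0.46, Cspg4 at -0.45 and Matn4 at -0.28, and the rest of the 9 stayed negative. The 9 genes summed to 387 to 565 CPM in KO/+ libraries and to 525 to 730 CPM in WT libraries. Their sum was lowest in KO/+ replicate 1 and highest in WT replicate 3 as for Ptprz1, and 0 of the 9 were at 0 in any library. Gpr17, a receptor of differentiating precursors, stood at 72.2, 91.5, 123 and 125 CPM in KO/+ cerebella. In WT cerebella it stood at 150, 133 and 182 CPM, and its genotypes did not overlap. Of all genes tested, 3.96% had no overlap, 1.8% being lower in KO/+. The part of oligodendrocyte precursors in the Ptprz1 values was not tested. Of 8 genes of PTPRZ1 ligands and binding partners, 0 passed, 2 were positive and 6 negative, and the ligand gene Ptn (pleiotrophin) had a value of -0.005 (SE 0.10), whose sign changed with 4 of the 7 libraries left out in turn. Ncam1, a neural adhesion molecule, had the smallest unadjusted p of them, with a log2 fold change of -0.25 (SE 0.12, edgeR adjusted p = 0.957). Nrcam, at -0.09 (SE 0.07), was lower in KO/+ without overlap, as were 1.8% of all genes tested.

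**Figure D4:**
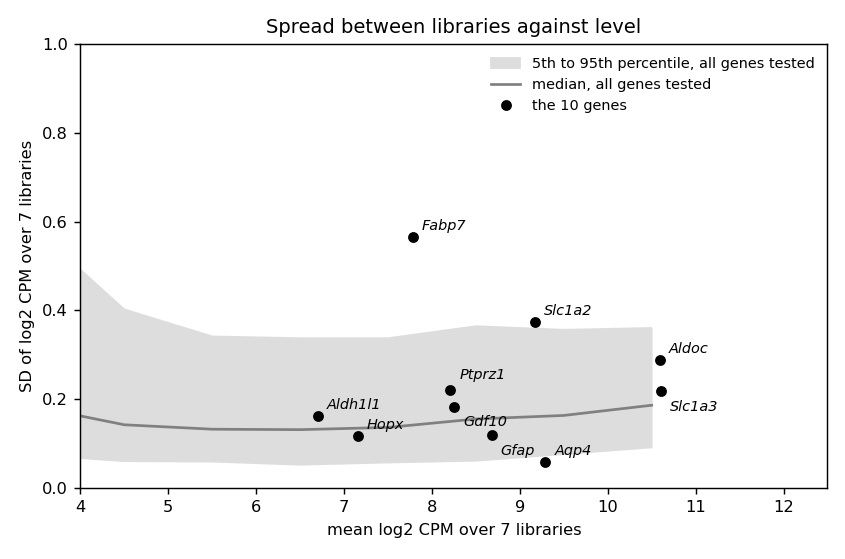
SD of log2 CPM over the 7 libraries (vertical axis) against mean log2 CPM (horizontal axis) for the 10 genes, over the median and the 5th to 95th percentile band of all genes tested. Fabp7 (SD 0.57) and Slc1a2 (0.37) lie above the band, Aqp4 (0.06) lies under it, Aldoc and Slc1a3 lie just beyond its right end, and the other 5 genes lie inside it.

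The files hold 59 transcripts of the 10 genes, of which 15 made up at least 10% of their gene's transcripts in the mean of either genotype, and 6 genes (Gdf10, Slc1a3, Slc1a2, Gfap, Aqp4 and Fabp7) had 1 such form. Of the 30 transcripts that passed the filter, 0 passed edgeR's test over 44375 transcripts (0% called; 4 of the 30 and 2.71% of all had an unadjusted p under 0.05, 1.3% being higher and 1.41% lower). Of these 4, Hopx-203 was higher, and Ptprz1-201, Ptprz1-204 and the rare Slc1a2-204 were lower. Slc1a2-204 was at or under 2.75 CPM in all libraries.

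Ptprz1 was divided among 3 forms. Ptprz1-201, the longest at 8068 bases, made up 30.6%, 30.1%, 35.4% and 38.1% in KO/+ cerebella and 37.0%, 38.2% and 34.3% in WT cerebella. Ptprz1-206, which ends upstream of the others at position 23004678, made up 45.7%, 48.1%, 43.0% and 40.7% in KO/+ and 40.3%, 39.4% and 45.8% in WT cerebella. KO/+ replicates 1 and 2 were thus lowest in the long form and WT replicate 3 stood between them and the rest, and the genotypes overlapped. Ptprz1-204, at 4947 bases, took 18.1% to 21.4% everywhere. The log2 fold changes of the 3 forms were -0.40 (SE 0.15), -0.22 (SE 0.16) and -0.25 (SE 0.09) for Ptprz1-201, Ptprz1-206 and Ptprz1-204, each with an edgeR adjusted p of 1.

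Aldoc used its downstream start more than its upstream start. Aldoc-202, which begins at position 78324200 by the downstream window shown above, made up 76.8%, 76.0%, 76.4% and 78.9% of Aldoc transcripts in KO/+ cerebella and 77.5%, 78.6% and 76.3% in WT cerebella. Aldoc-201, which begins at 78322968, upstream of the RefSeq start of the upstream window, made up 20.4% to 23.4% in KO/+ and 20.9% to 23.1% in WT cerebella. Both starts held RBPJ core letters, and their shares overlapped between genotypes. Hopx-202 and Hopx-203 took 76.0% ± 2.06 and 18.8% ± 1.40 in KO/+ (SD, n = 4) and 74.6% ± 0.817 and 18.8% ± 0.635 in WT cerebella (SD, n = 3), and both had positive log2 fold changes (0.21, SE 0.10, and 0.18, SE 0.08). The longer Aldh1l1-203 was the 1 form of the 15 whose shares did not overlap. Of the 31604 transcripts of at least 10% of a tested gene, 4.31% had no overlap, 2.17% being higher and 2.14% lower in KO/+. Aldh1l1-203 entered the 15 only through its KO/+ mean of 10.2%, against 8.42% in WT, so its lack of overlap is a description only. Its shares stood at 9.72% to 11.1% in KO/+ and 6.81% to 9.49% in WT cerebella, and its level did not pass (log2 fold change 0.14, SE 0.14, edgeR adjusted p = 1).

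**Figure D5:**
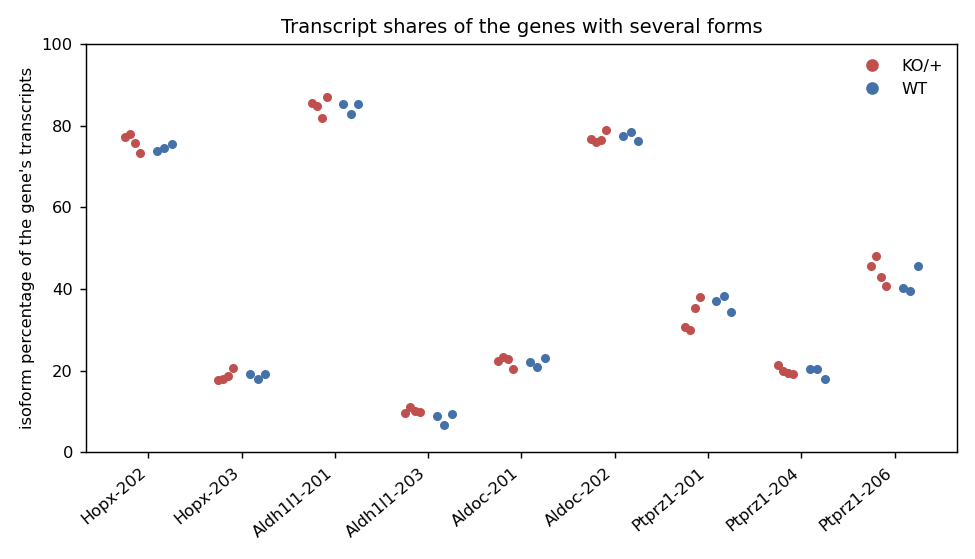
Isoform percentage (vertical axis, 0 to 100) of the transcripts of at least 10% in the 4 genes with several forms, with KO/+ points to the left of WT points. Shares overlap between genotypes except for Aldh1l1-203, which reached 10% only in the KO/+ mean, and the spread is widest for Ptprz1-201 and Ptprz1-206.

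Beyond the 10 markers, 65 genes in 5 further lists were read from the same fit. The lists held wider astroglial genes and the PTPRZ1 ligands and binding partners given above, so the 65 are not all astroglial. Slc1a6, of the glutamate handling list, is also in the Purkinje cell list. Of these 65, 0 passed in either direction (background 0%). At an unadjusted p under 0.05, 1 was higher and 0 lower, where 1.25% of all genes were higher and 1.9% lower. Of 15 genes for handling of glutamate, GABA and potassium, 4 were positive and 11 negative (median log2 fold change -0.13). Those with the smallest p after Slc6a9, a glycine transporter gene (-0.35, SE 0.15), were Slc6a11, given above, and the glutamine transporter gene Slc38a3 (-0.28, SE 0.13). Averaged over these genes, log2 CPM stood at 7.66, 7.94, 7.71 and 7.65 in KO/+ libraries and 7.68, 7.72 and 8.26 in WT libraries, with WT replicate 3 highest as for Slc1a2.

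Of 14 transcription factor genes of radial glia and astroglia, 5 were positive and 9 negative (median -0.06). The Notch target Hes1 was at 8.83, 8.90, 8.13 and 6.33 CPM in KO/+ and at 5.51, 6.36 and 5.73 CPM in WT cerebella. KO/+ replicate 4 lay just under WT replicate 2, and with a log2 fold change of 0.46 (SE 0.15) Hes1 did not pass (edgeR adjusted p = 0.957). Etv5, a factor downstream of FGF signalling, was at 0.12 (SE 0.07) and Rfx4 at -0.17 (SE 0.12), or -0.01 without WT replicate 3. Sox9, the glial fate factor, was at -0.10 (SE 0.09).

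The 16 secreted, lipid and surface genes of astroglia had 10 positive and 6 negative values (median 0.11), and their 3 highest libraries were those of Slc1a3 and Aldoc. Averaged over them, log2 CPM stood at 8.15, 8.32, 7.82 and 7.54 in KO/+ libraries and 7.63, 7.57 and 8.37 in WT libraries, high in KO/+ replicates 1 and 2 and WT replicate 3. Timp4, a metalloproteinase inhibitor gene, stood at 235, 246, 172 and 156 CPM in KO/+ and at 154, 138 and 187 CPM in WT cerebella (log2 fold change 0.34, SE 0.18). Pla2g7, a secreted phospholipase gene, had a value of 0.30 (SE 0.21). The receptor gene Fgfr3 stood at 60.1, 80.3, 58.6 and 50.2 CPM in KO/+ and at 58.8, 54.3 and 115 CPM in WT cerebella, highest in WT replicate 3. Its log2 fold change was -0.29 (SE 0.27), and 0.14 without WT replicate 3.

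Of 13 filament and reactive genes, 0 passed, 4 were positive and 9 negative (median -0.11). Serpina3n, induced in reactive astrocytes, stood at 4.81, 5.63, 4.33 and 4.63 CPM in KO/+ and at 4.25, 3.52 and 7.48 CPM in WT cerebella, with WT libraries at both ends. Lcn2 was at 0.10 to 0.43 CPM in KO/+ and at 0.13 to 0.30 CPM in WT libraries. C3, Stat3 and Cd44 had log2 fold changes of -0.70 (SE 0.33), -0.13 (SE 0.09) and -0.20 (SE 0.14). C3 was at only 0.265 to 0.372 CPM in KO/+ and 0.325 to 0.748 CPM in WT libraries. Its log2 fold change was -0.37 without WT replicate 3. Vim, the filament of radial glia, was at -0.02 (SE 0.13), and its sign changed with 4 of the 7 libraries left out in turn.

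The 9 marker lists of other cells, 101 genes in all, had 0 genes past the test. At an unadjusted p under 0.05, 4 were higher and 1 lower, where 1.25% of all genes were higher and 1.9% lower. The 4 were Cbln1 of granule neurons and Dcn, Aldh1a2 and Slc6a13 of meninges and fibroblasts, and the 1 was Gpr17. Among them Dcn and Aldh1a2 were higher without overlap, as were 2.16% of all genes tested. Median log2 fold changes were 0.11 for Purkinje cells, 0.25 for mature granule neurons, -0.27 for the cell cycle and 0.04 for myelinating oligodendrocytes. They were 0.54 for choroid plexus and ependyma, 0.16 for meninges and fibroblasts, 0.12 for microglia and 0.01 for endothelial cells. The median of all genes tested was -0.005. Choroid plexus and ependyma genes summed to 198 to 2097 CPM in KO/+ libraries and to 251 to 1571 CPM in WT libraries. The genotypes thus overlapped widely, as for the cell cycle genes above.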

How the data were processed

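Poly(A) RNA of mouse cerebella was sequenced in 7 libraries with a directional kit, per the labels' protocols. The submitters' processing notes name RSEM 1.3.1, STAR 2.5.2a, Trimmomatic 0.39 and the builds GRCm38 and mm10. The strand setting is not given in the sources used here. Expected counts per gene and transcript, TPM and isoform percentages were deposited by the authors, per the file headers. Tables of the whole series were not used. All 55450 gene IDs were found in GENCODE M21, which gave positions.

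Expected counts were rounded, filtered with filterByExpr, scaled by TMM (factors 0.978 to 1.02) and tested with edgeR 4.0.16 (robust quasi-likelihood, KO/+ over WT, no covariate, Benjamini-Hochberg adjustment over all genes or transcripts). Transcript tests do not model the uncertainty of read assignment. Exact permutation tests used mean log2 CPM (prior count 2). Alternatives used DESeq2 1.42.0, limma 3.58.1, R 4.3.3 and other settings. No libraries agreed within sampling noise.

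The 10 genes, the lists, the rule for named genes (up to 3 per list by unadjusted p, the 2 nearest patterns per gene, and transcripts of at least 10%) and the alternatives were chosen with earlier results of these data known. Mki67, Ttr, Ptn, Sox9, Vim, Serpina3n and Lcn2 were named outside this rule, after their values were seen. At most 1.22% of the 50-base windows of any of the 10 genes' transcripts also occur in transcripts of other genes.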

Additional observations from a re-analysis of the deposited data

Results flagged for a closer look

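In the 4 KO/+ libraries, 1 library stood apart from the other 3 for 3 of the 25 values examined, by its gap relative to the range, where chance flags about 1 in 20. Gdf10 was lowest in KO/+ replicate 3 at 289.0 CPM, against 333 to 339 CPM in the other KO/+ libraries. Aldh1l1 was highest in KO/+ replicate 4 at 117 CPM, against 93.0 to 95.8 CPM in the others. The share of Slc1a2-202 was lowest in KO/+ replicate 1 at 94.03%, against 97.2% to 97.6% in the others.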

How the results depend on the processing

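Each of the 10 fold changes was recomputed under 19 alternatives, and 184 of the 190 values kept their direction. The 6 that changed sign were Slc1a2 without WT replicate 3 (range over left-out libraries -0.5156 to 0.0432), Gfap without WT replicate 2 (range -0.0315 to 0.1451), and Aldoc with the cell cycle score (-0.0204) or the choroid plexus score (-0.0052) as a covariate, without KO/+ replicate 2 and without WT replicate 1 (range -0.052 to 0.2928); the cause was not tested. Of the 10 genes, 0 passed under any of these alternatives or at a threshold of 0.1, and of their transcripts 0 passed under any alternative run. Over all genes, leaving out 1 library gave 0 to 1 calls (Eif3j2 without KO/+ replicate 4, Wdfy1 without WT replicate 2 and Fam220a without WT replicate 3). The labels give both genotypes replicate numbers, but same-numbered libraries did not deviate together (correlations of 0.086, -0.17 and -0.022), so the numbers were not taken as pairs. With the replicate number as a block, 1 gene outside the 10, Eif3j2, passed over all genes, and 0 of the 10 did. No scaling moved the median of all genes by more than 0.1 on the log2 scale. With an SE of 0.24 for Slc1a2 and 0.36 for Fabp7, against 0.142 for the median gene, a change in those 2 genes had to be larger to be seen.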
